A study of Mus musculus with 16 samples.

Results

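Sulf1, Glul, Akap12 and Efemp1 are the 4 genes, of 22155 tested in mouse epidermal cells, whose response to papain differed between diets by edgeR. The thresholds were those the study set for its own comparisons of groups, which it made with DESeq2. At these thresholds DESeq2 called 207 genes here, the 4 among them. The 4 genes were chosen by the interaction of diet and papain in these libraries, and were taken from the table of raw counts, which lists 50600 genes, by the Ensembl identifiers ENSMUSG00000016918 (Sulf1), ENSMUSG00000026473 (Glul), ENSMUSG00000038587 (Akap12) and ENSMUSG00000020467 (Efemp1). The interaction and the 4 comparisons that make it up are therefore given here as a description, with no test. The mean response over both diets and the mean difference over both treatments did not enter the choice and were tested.

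The cells came from the footpad epidermis of female C57/B6J mice, which received a purified diet from 5 wk of age for 3 wk. On the AhR-poor diet (SYNTH in the sample labels) the diet held few ligands of the aryl hydrocarbon receptor (AhR), a transcription factor that is switched on by small molecules from food and microbes. On the I3C diet the same food held 200 ppm of indole-3-carbinol, a cabbage compound from which such ligands form. Each footpad received PBS (vehicle) or PBS with 50 μg of papain, an allergenic plant protease, and epidermal cells were collected after 6 hr. There were 16 libraries, 4 for each combination, namely T108, T109, T110 and T111 for the I3C diet with vehicle, T106, T113, T114 and T115 for the I3C diet with papain, T100 to T103 for the AhR-poor diet with vehicle, and T104, T105, T107 and T112 for the AhR-poor diet with papain. According to the methods, mice on the same diet shared a cage, so diet and cage cannot be told apart, and the libraries were spread over 3 sequencing units that the labels do not assign. Replicates are described as biological.

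The 4 proteins act in different places. Efemp1 (fibulin-3) is a secreted glycoprotein of the extracellular matrix and of basement membranes, from the family of fibulins that help build elastic fibres. Sulf1 is a secreted sulfatase that trims sulfate groups from heparan sulfate, the sugar chains on which many growth factors, among them FGF and Wnt ligands, dock at the cell surface. Akap12 (gravin, or SSeCKS) is a scaffold under the plasma membrane that holds protein kinases A and C near their targets and binds actin. Glul is glutamine synthetase, the enzyme that joins ammonia to glutamate, and is known as a target of glucocorticoids. In skin, fibroblasts of the dermis make much of the extracellular matrix, whereas keratinocytes make up most of the epidermis.

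In the GENCODE M21 annotation of GRCm38, all 4 genes are protein coding and lie on the forward strand. Sulf1 spans chr1:12692277-12861192, with 11294 exonic bases, and Glul spans chr1:153899944-153909723, with 3323 exonic bases. Akap12 spans chr10:4266380-4359470, with 6461 exonic bases, and Efemp1 spans chr11:28853204-28926743, with 2037 exonic bases. No other gene overlaps Sulf1, Akap12 or Efemp1. Glul shares 209 exonic bases with Teddm2 and Mir8114, of which 93 are on the same strand, so reads there could be counted for either gene.

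Glul and Efemp1 were the pair that fell with papain on both diets, and the RefSeq promoter table for GRCm38.p6 held both (2 of the 4 genes). The 250 bases before the annotated start are printed from chr1:153899679-153899928 for Glul and chr11:28852955-28853204 for Efemp1, forward strand, with matches to the searched motifs in capitals.
Glul: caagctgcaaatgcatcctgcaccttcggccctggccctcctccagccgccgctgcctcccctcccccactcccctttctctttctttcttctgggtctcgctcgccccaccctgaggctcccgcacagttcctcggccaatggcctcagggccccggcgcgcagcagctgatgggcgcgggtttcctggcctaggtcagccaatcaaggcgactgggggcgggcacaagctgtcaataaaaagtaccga
Efemp1: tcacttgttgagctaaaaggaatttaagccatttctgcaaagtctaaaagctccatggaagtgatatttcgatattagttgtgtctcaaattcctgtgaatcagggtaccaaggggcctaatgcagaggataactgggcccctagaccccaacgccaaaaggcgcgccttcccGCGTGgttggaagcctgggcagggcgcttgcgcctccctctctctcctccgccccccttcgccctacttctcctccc
Short motifs of known factors were searched on both strands. The AhR core GCGTG matched the Efemp1 window once, on the same strand, with its first base 77 bases before the start, and did not match the Glul window, while 28.2% of the 32851 promoters of this length held it. The AP-1 site TGACTCA, held by 4.46% of promoters, matched neither window. The same was true of the glucocorticoid half-site AGAACA, held by 16.1%. The TEAD site CATTCC, held by 12.6%, was also absent from both. The cAMP response half-site TGACG was held by 17.8% and the TATA box TATAAA by 12.4% of promoters, and neither was in these windows. G and C made up 64.8% of the Glul window and 53.6% of the Efemp1 window, against a median of 52.4% over all promoters. A match or its absence is a description of these letters alone.

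Total counts ran from 22500821 (T107) to 51844375 (T105) per library, and expression is given as CPM (the count of a gene scaled to the library total) after scaling with TMM factors of 0.937 to 1.07. A count of 3, taken as the floor, corresponded to 0.0569 to 0.13 CPM, and all 4 genes were above it in every library. Their lowest counts were 12 to 17 per library for Akap12 and 17 to 26 for Sulf1, both on the I3C diet with papain, so the precision is least there. Defining keratinocyte genes were abundant in every group, the 10 basal markers summing to 21700 to 39200 CPM. Markers of dermal cells were also present. In such bulk samples, fewer cells of a type and less RNA per cell cannot be told apart.

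Efemp1 was lower with papain on both diets, and the drop was deeper on the I3C diet. With vehicle it stood at 41.2, 34.1, 29.5 and 39.4 CPM in the I3C libraries T108, T109, T110 and T111, and at 34.2, 34.3, 26.8 and 31.8 CPM in the AhR-poor libraries T100 to T103. The vehicle groups overlapped. With papain it was 4.73, 3.88, 4.62 and 5.35 CPM on the I3C diet (T106, T113, T114, T115) and 12.1, 16, 12.9 and 10.3 CPM in AhR-poor mice (T104, T105, T107, T112). Each papain library was below each vehicle library, and each I3C papain library was below each AhR-poor papain library. The mean fell from 36.1 ± 5.3 to 4.64 ± 0.601 CPM on the I3C diet and from 31.8 ± 3.49 to 12.8 ± 2.38 CPM in AhR-poor mice (SD, n = 4). These are fitted log2 fold changes of -2.95 (SE 0.15) and -1.31 (SE 0.13), or 7.74-fold and 2.47-fold lower.

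Glul, the most strongly expressed of the 4, followed the same order of treatments. With vehicle its level was 243, 220, 195 and 243 CPM in the I3C libraries T108, T109, T110 and T111 and 176, 181, 172 and 133 CPM in the AhR-poor libraries T100 to T103. With papain it was 52.8, 36.6, 35.4 and 35.6 CPM on the I3C diet (T106, T113, T114, T115) and 77.1, 82.2, 81.1 and 64.2 CPM in AhR-poor mice (T104, T105, T107, T112). None of the 4 groups overlapped, and the order of the diets turned round, with the I3C diet higher after vehicle and lower after papain. The group means were 225 ± 23 and 40.1 ± 8.47 CPM on the I3C diet, and 165 ± 21.9 and 76.1 ± 8.29 CPM in AhR-poor mice, with vehicle and papain respectively (SD, n = 4). The log2 fold change with papain was -2.49 (SE 0.14) on the I3C diet and -1.12 (SE 0.13) on the AhR-poor diet.

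Sulf1 was lower with papain on the I3C diet, whereas on the AhR-poor diet its groups overlapped. In the vehicle libraries it was 5.83, 4.21, 4.33 and 2.43 CPM on the I3C diet (T108 to T111) and 4.33, 3.97, 3.76 and 5.58 CPM in AhR-poor mice (T100 to T103). With papain it was 0.633, 0.738, 0.485 and 0.522 CPM on the I3C diet (T106, T113, T114, T115), where no library reached the lowest vehicle library. On the AhR-poor diet with papain it was 6.92, 9.37, 6.75 and 3.43 CPM (T104, T105, T107, T112), and T112 lay below all 4 vehicle libraries of that diet while the other three lay above them. The mean went from 4.2 ± 1.39 to 0.595 ± 0.114 CPM on the I3C diet and from 4.41 ± 0.814 to 6.62 ± 2.44 CPM in AhR-poor mice (SD, n = 4). The log2 fold change with papain was -2.82 (SE 0.31), or 7.06-fold lower, on the I3C diet and 0.59 (SE 0.26), with overlapping groups, on the AhR-poor diet.

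Akap12 moved in opposite directions on the 2 diets. With vehicle it was 0.89, 0.663, 0.68 and 0.69 CPM in T108 to T111 of the I3C diet and 1.74, 1.06, 1.19 and 1.13 CPM in T100 to T103 of the AhR-poor diet. With papain it was 0.414, 0.481, 0.343 and 0.348 CPM on the I3C diet (T106, T113, T114, T115) and 6.77, 7.81, 4.46 and 3.21 CPM in AhR-poor mice (T104, T105, T107, T112). None of the 4 groups overlapped, although the I3C values rest on 12 to 31 counts per library. The mean was 0.731 ± 0.107 and 0.396 ± 0.0651 CPM on the I3C diet, and 1.28 ± 0.314 and 5.56 ± 2.11 CPM in AhR-poor mice, with vehicle and papain respectively (SD, n = 4). The log2 fold change with papain was -0.88 (SE 0.31) on the I3C diet and 2.13 (SE 0.25), or 4.37-fold higher, on the AhR-poor diet.

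**Figure D1:**
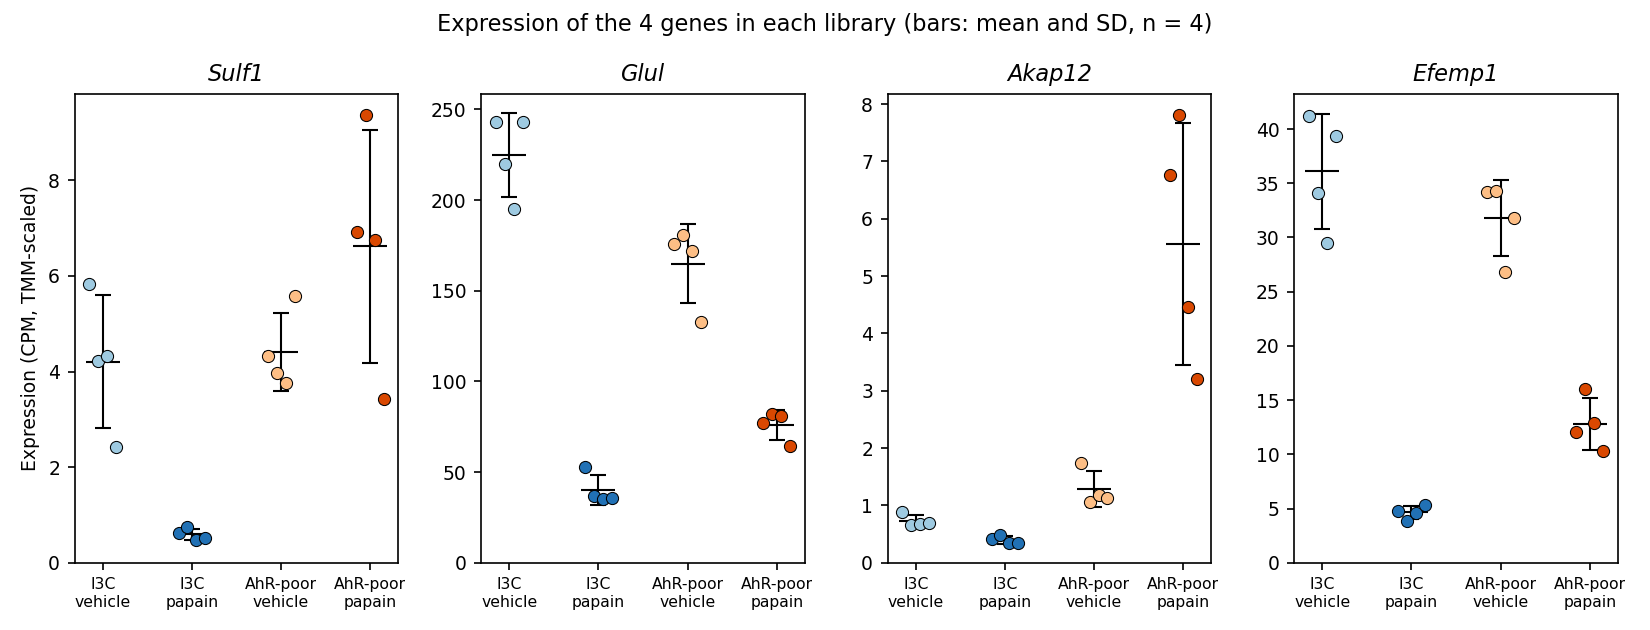
Expression in CPM (linear axes from 0) of Sulf1, Glul, Akap12 and Efemp1 in the 16 libraries. Points are libraries, and bars are the mean and SD of the 4 libraries of a group. Efemp1 and Glul were lower with papain on both diets, Sulf1 was low on the I3C diet with papain (0.485 to 0.738 CPM), and Akap12 was highest on the AhR-poor diet with papain (3.21 to 7.81 CPM).

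The orders of the 4 groups thus differed between the genes. From high to low, Glul ran from I3C vehicle through AhR-poor vehicle and AhR-poor papain to I3C papain, and Efemp1 had the same order with the vehicle groups overlapping. Akap12 ran from AhR-poor papain through AhR-poor vehicle and I3C vehicle to I3C papain. For Sulf1 only I3C papain stood apart, the other three groups overlapping one another. I3C papain was the lowest group for all 4 genes. The groups overlapped in 3 of the 16 comparisons of treatments within a diet or diets within a treatment. These comparisons make up the interaction that chose the genes, and the share of all tested genes without overlap was not computed. The count therefore does not set the 4 genes apart from others. Divided by exonic length, the level with vehicle on the I3C diet was 67.8 ± 6.89 CPM per kb for Glul, 17.7 ± 2.6 for Efemp1, 0.372 ± 0.123 for Sulf1 and 0.113 ± 0.0165 for Akap12 (SD, n = 4), with no overlap between neighbours. On the AhR-poor diet with papain, Akap12 (0.861 ± 0.325 CPM per kb) was above Sulf1 (0.586 ± 0.216 CPM per kb) on average, with overlapping libraries.

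Between diets, the fitted differences were larger with papain than with vehicle in all 4 genes, which is the pattern they were chosen for. With vehicle, AhR-poor against I3C gave log2 fold changes of 0.07 (SE 0.27) for Sulf1, -0.18 (SE 0.13) for Efemp1, -0.44 (SE 0.13) for Glul and 0.80 (SE 0.27) for Akap12. With papain they were 3.48 (SE 0.31) for Sulf1, 1.46 (SE 0.14) for Efemp1, 0.92 (SE 0.13) for Glul and 3.81 (SE 0.29) for Akap12. The difference of the papain responses, AhR-poor minus I3C, was 3.41 (SE 0.41) for Sulf1, 3.01 (SE 0.40) for Akap12, 1.65 (SE 0.19) for Efemp1 and 1.37 (SE 0.18) for Glul on the log2 scale. Genes were called when the adjusted p was below 0.01 and the log2 fold change exceeded 1 in size, and the 4 genes are all that edgeR called in the interaction by this rule, 0.0181% of the genes tested. At an unadjusted p below 0.05 there were 2987 genes, and DESeq2 called 207 with the same thresholds, the 4 genes among them, so the set depends on the tool. The other comparisons called more genes, among all those tested. Papain on the AhR-poor diet called 6.04% as higher and 2.42% as lower, papain on the I3C diet 3.69% as higher and 5.29% as lower, the AhR-poor diet with vehicle 1.59% as higher and 0% as lower (784 lower at an unadjusted p below 0.05, and 6 by DESeq2), and the AhR-poor diet with papain 7.15% as higher and 0.0993% as lower. The median log2 fold change over all tested genes was between -0.04 and 0.03 in these comparisons.

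The values near the limit of the rule form a continuous series. Just inside it, Glul had an interaction of 1.37 with an edgeR adjusted p of 0.00439. That p chose the gene, so it marks the place of Glul in the series and is no test of it. Just outside it, Col6a1, a chain of collagen VI, had the same size, 1.37 (SE 0.20), with an edgeR adjusted p of 0.0102. Dab2, an endocytic adaptor, Hmcn2, a large relative of the fibulins, and Cygb, cytoglobin, followed with interactions of 3.46, 2.42 and 2.47 and an edgeR adjusted p of 0.0128 each. Col6a1 had group means of 73.6 and 17.2 CPM on the I3C diet and 66.9 and 40.6 CPM in AhR-poor mice, with vehicle and papain, the same order as Efemp1.

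**Figure D2:**
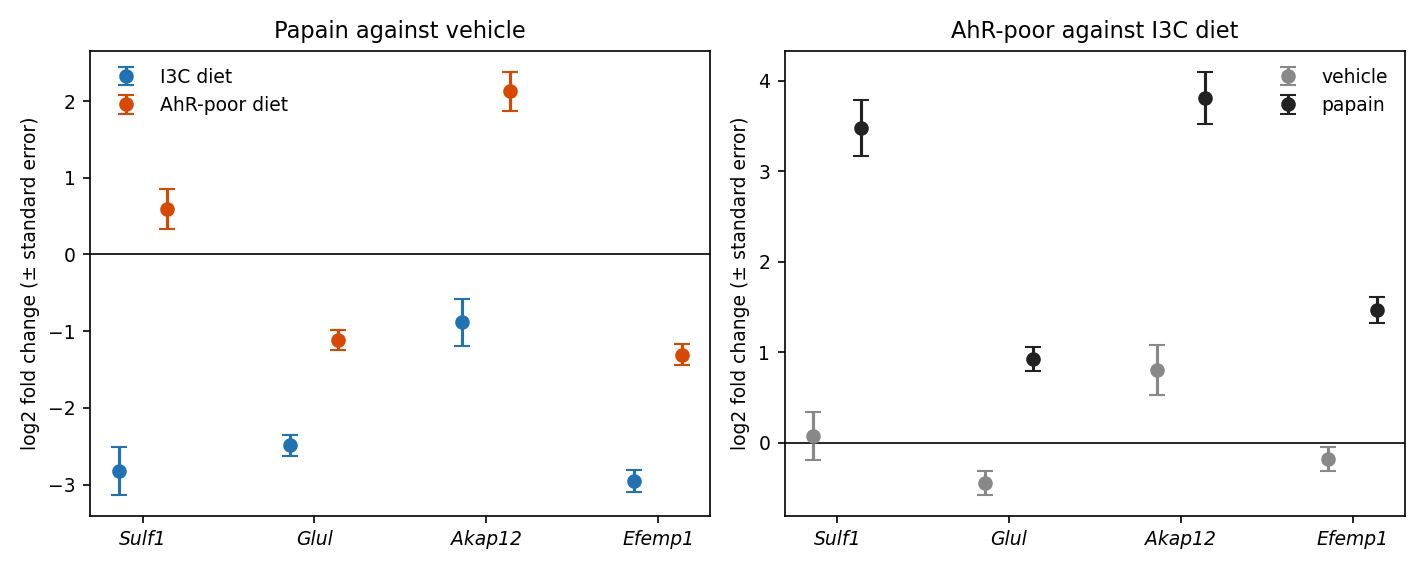
Fitted log2 fold changes with standard errors for papain against vehicle on each diet (left) and for AhR-poor against I3C with each treatment (right), from 4 libraries a group. The papain response on the I3C diet lies below that on the AhR-poor diet for each gene, the contrast by which the genes were chosen, and Akap12 has opposite signs (-0.88 and 2.13).

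Averaged over both diets, a measure the choice did not use, 3 of the 4 genes were lower with papain. The mean log2 fold change was -2.13 (SE 0.10, edgeR adjusted p = 9.96e-12) for Efemp1, -1.80 (SE 0.09, adjusted p = 8.49e-11) for Glul and -1.12 (SE 0.20, adjusted p = 0.00016) for Sulf1, against 4.63% of all tested genes called lower. For Akap12 it was 0.62 (SE 0.20, adjusted p = 0.0156) and not called, where 5.27% of genes were called higher. Akap12 had opposite signs on the diets and Sulf1 differed with papain on the I3C diet while its AhR-poor groups overlapped, so these averages describe neither diet. All 8 papain libraries were below all 8 vehicle libraries for Efemp1 and Glul, whereas for Sulf1 and Akap12 they were not. For how many of all tested genes this holds was not computed.

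Averaged over both treatments, Akap12 and Sulf1 were higher on the AhR-poor diet, the average of Sulf1 coming from the papain libraries (3.48, against 0.07 with vehicle, where the groups overlapped), so that it describes neither treatment. The mean log2 fold change was 2.31 (SE 0.20, edgeR adjusted p = 1.85e-07) for Akap12 and 1.77 (SE 0.20, adjusted p = 5.08e-06) for Sulf1, and 6.45% of all tested genes were called higher. Efemp1 had 0.64 (SE 0.10, adjusted p = 8.93e-05), which is below the minimum fold change, and Glul had 0.24 (SE 0.09, adjusted p = 0.0805). With the mean log2 CPM of the fibroblast markers added to the fit as a covariate, these values became -0.26 (SE 0.93) for Akap12, -0.37 (SE 1.07) for Sulf1, 0.27 (SE 0.55) for Efemp1 and -0.66 (SE 0.45) for Glul, each with an edgeR adjusted p of 1, so both calls were lost and no direction was established. The fibroblast markers differed between the diets themselves, so within such a fit the diet and the covariate are hard to separate.

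Which cell type genes the 4 genes follow was examined with lists of markers for 15 cell types. The 18 dermal fibroblast markers summed to 144 to 177 CPM with vehicle and 176 to 190 CPM with papain on the I3C diet, and to 254 to 369 CPM with vehicle and 531 to 1030 CPM with papain on the AhR-poor diet. With papain on the AhR-poor diet, 15 of the 18 were called higher and none lower (median log2 fold change 1.89), whereas on the I3C diet none was called higher and 3 were called lower (median -0.32). Between diets, with papain, 16 of the 18 were called higher in AhR-poor mice (median log2 difference 6.47). Collagen I (Col1a1) had means of 1.43, 1.25, 24.4 and 88.9 CPM in I3C vehicle, I3C papain, AhR-poor vehicle and AhR-poor papain, and Lox and Mfap5 were at or under the floor in every I3C library. In the interaction, 12 of the 18 had an unadjusted edgeR p below 0.05, and DESeq2 called 7. That edgeR called 0 of the 18 was fixed by the choice, since its only calls were the 4 genes.

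The 4 genes shared parts of this pattern and departed from it in others. Akap12 had the same order of groups as Col1a1, with a papain response of 2.13 beside the list median of 1.89. On the I3C diet with vehicle, however, where Col1a1 was at 1.43 CPM and Lox and Mfap5 were at or under the floor, Glul was at 225, Efemp1 at 36.1 and Sulf1 at 4.2 CPM, above (Glul) or overlapping (Efemp1 and Sulf1) the AhR-poor libraries with vehicle. Across the vehicle groups 14 of the 18 fibroblast markers were called higher on the AhR-poor diet (median 3.88), and the corresponding values were 0.07 for Sulf1, -0.18 for Efemp1 and -0.44 for Glul. Of the 18 markers, Col6a1 (-2.10 on the I3C diet and -0.72 on the AhR-poor diet) lay nearest to Glul and Efemp1, and Thy1 and Col6a1 supplied most of the summed level on the I3C diet. The 15 endothelial markers, at 3.56 to 5.58 and 6.94 to 7.76 CPM on the I3C diet and 21.2 to 54.2 and 41.7 to 95.8 CPM in AhR-poor mice (vehicle and papain), also rose with the AhR-poor diet, with 12 called with vehicle and 14 with papain. Among the immune lists, the sums of the mast cell, the monocyte and macrophage, and the neutrophil markers set the AhR-poor papain libraries apart from the rest. The 9 mast cell markers summed to 1.47 to 1.95 and 1.94 to 9.45 CPM on the I3C diet and to 3.86 to 8.94 and 34 to 275 CPM in AhR-poor mice (vehicle and papain), and papain called 5 of them higher on AhR-poor and 0 on I3C. For the 14 monocyte and macrophage markers the sums were 7.73 to 9.99, 8.06 to 27.5, 22.9 to 34.9 and 116 to 590 CPM in the same order, with 11 and 2 called higher, and of 14 tested neutrophil markers 11 and 4 were called higher. Over the 16 libraries, the log2 level of Akap12 had an r of 0.951 with the mast cell, 0.935 with the fibroblast and 0.914 with the monocyte and macrophage markers, values led by the differences between groups, which do not separate these lists. By the same measure, r for Glul and Efemp1 was highest with the eccrine sweat gland markers (0.632 and 0.702), then with the basal keratinocyte markers (0.614 and 0.547). With the fibroblast markers it was 0.07 and 0.194. The eccrine sweat gland markers summed to 267 to 323 CPM with vehicle and 142 to 182 CPM with papain over both diets. These values, too, are led by the differences between groups. The 10 basal keratinocyte markers had a median of -0.22 with papain on the I3C diet and -0.23 on the AhR-poor diet. In I3C mice, edgeR called 2 of them reduced by papain and 1 raised (-1.93 to 1.15). At an unadjusted p below 0.05 these counts were 5 and 2. In AhR-poor mice 2 were called reduced and 0 raised (-1.38 to 0.92), or 4 and 1 unadjusted. Between the diets 0 were called with either treatment, by edgeR or DESeq2. At an unadjusted edgeR p below 0.05, 3 were lower in AhR-poor mice with vehicle and 0 higher. With papain these counts were 6 and 1.

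**Figure D3:**
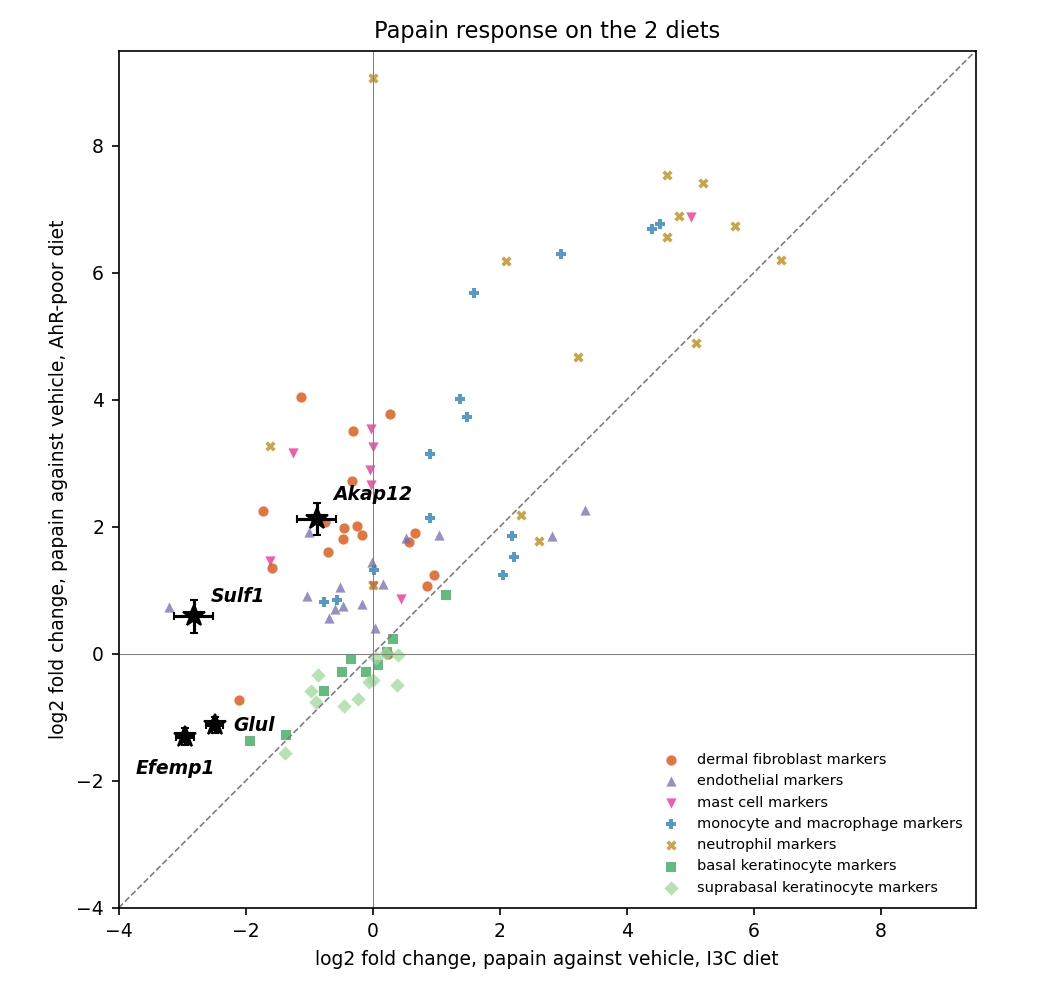
Log2 fold change with papain on the I3C diet (horizontal) against that on the AhR-poor diet (vertical), with the diagonal of equal response. Stars with standard errors are the 4 genes, and small symbols are single markers of dermal fibroblasts, endothelial cells, mast cells, monocytes and macrophages, neutrophils, and basal and suprabasal keratinocytes. The 4 genes were chosen for lying off the diagonal, and Akap12 (-0.88 and 2.13) lies among fibroblast and endothelial markers with immune markers nearby or above. Glul and Efemp1 lie near 1 fibroblast marker, Col6a1, and near the lowest basal keratinocyte marker (-1.93 and -1.38).

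Libraries of the same group also varied together to some extent. Of the 4 AhR-poor papain libraries, T105 was the highest and T112 the lowest for all 4 genes. T105 also had the highest and T112 the lowest sum of fibroblast (1030 and 531 CPM), mast cell (275 and 34 CPM), monocyte and macrophage (590 and 116 CPM) and T cell markers (88.4 and 33.0 CPM). Basal keratinocyte sums were 24200 CPM in T105 and 26000 CPM in T112. Neutrophil sums were also highest in T105 and lowest in T112, but other lists had other orders. The endothelial sum was lowest in T107, and the adipocyte, skeletal muscle and Langerhans cell sums were highest in T104. T105 was also the deepest library. Without T105 the interaction was 3.18 for Sulf1, 2.79 for Akap12 and 1.51 for Efemp1, and without T112 it was 3.63 for Sulf1, so the pattern remained without either library.

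Deviations of each library from its group mean were then correlated between the 4 genes and the 15 lists, in 60 relations over 16 libraries, a measure that holds no difference between groups. By Pearson's r with an exact two-sided permutation test within groups, 14 relations had an unadjusted p below 0.05 and 0 passed after adjustment over the 60. Akap12 varied most with the mast cell markers (r = 0.816, exact p = 0.00431, adjusted p = 0.0665), and this relation alone passed by Spearman's rho (0.771, exact p = 0.000585, adjusted p = 0.0351). Without the libraries farthest from the median on the marker axis, T100 and T112, r was 0.475, so the relation rests in large part on them. Glul varied most with the T cell markers (r = 0.831, exact p = 0.00444, adjusted p = 0.0665, rho = 0.703, exact p = 0.00888, adjusted p = 0.154), with r = 0.569 without T106 and T112. Its relation to the mast cell markers (r = 0.711, exact p = 0.00264, adjusted p = 0.0665, rho = 0.638, exact p = 0.0153, adjusted p = 0.154) was 0.822 without T100 and T112. The same adjusted p of 0.0665 was reached by Glul with the neutrophil markers (r = 0.667, exact p = 0.00546, rho = 0.632), with r = 0.681 without T105 and T112. It was also reached by Akap12 with the pericyte and smooth muscle markers (r = 0.735, exact p = 0.00554, rho = 0.65), with r = 0.341 without T100 and T112.

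The fibroblast markers were not the closest list for any of the 4 genes on this measure. For Sulf1 the closest were the pericyte and smooth muscle markers (r = 0.62, exact p = 0.0414, adjusted p = 0.193, rho = 0.574, exact p = 0.0423, adjusted p = 0.318), with r = 0.463 without T100 and T112. The r of the fibroblast markers was 0.622 with Akap12 (exact p = 0.0226, adjusted p = 0.18, rho = 0.594, exact p = 0.0317, adjusted p = 0.272), 0.522 with Sulf1 (exact p = 0.0637, adjusted p = 0.239, rho = 0.497, exact p = 0.0728, adjusted p = 0.361), 0.466 with Glul (exact p = 0.135, adjusted p = 0.352, rho = 0.356, exact p = 0.231, adjusted p = 0.534) and 0.16 with Efemp1 (exact p = 0.607, adjusted p = 0.765, rho = 0.097, exact p = 0.752, adjusted p = 0.851). Without T112 and T114 these fell to 0.352, 0.141, 0.219 and -0.155. For Efemp1 the highest r over the 15 lists was 0.449, with the mast cell markers (exact p = 0.132, adjusted p = 0.352, rho = 0.362, exact p = 0.195, adjusted p = 0.51), and 0.122 without T100 and T112. The mast cell sums were 1.47 to 1.95 CPM with vehicle and 1.94 to 9.45 CPM with papain on the I3C diet, 8 and 6 of the 9 markers there being at or under the floor in every library, so these deviations are imprecise. Among the 6 pairs of the 4 genes, Sulf1 and Akap12 varied most closely (r = 0.686, exact p = 0.0138, adjusted p = 0.083, rho = 0.535, exact p = 0.0558, adjusted p = 0.167), with r = 0.364 without T105 and T112, and 0 pairs passed after adjustment (1 before it).

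**Figure D4:**
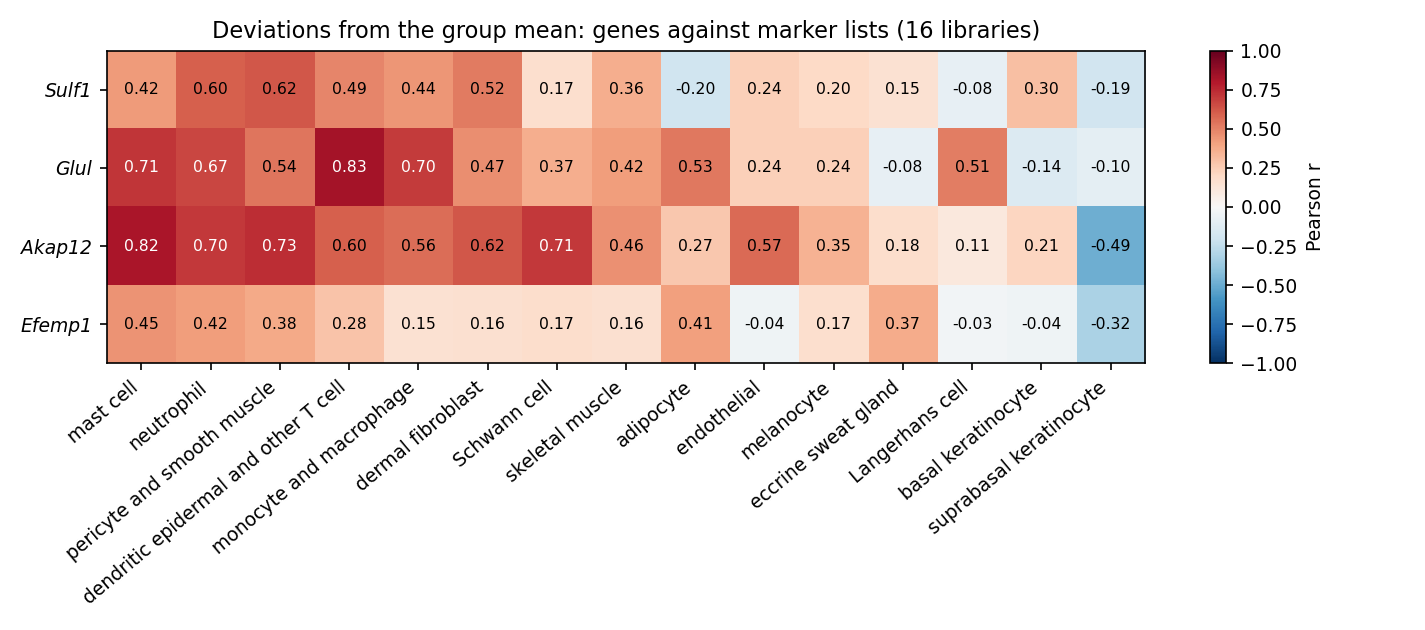
Pearson's r between deviations from the group means (log2 CPM, 16 libraries) of the 4 genes (rows) and of the mean of each marker list (columns, ordered by mean r). The largest values are 0.83 (Glul with T cell markers) and 0.82 (Akap12 with mast cell markers), and no value passed an adjusted p of 0.05.

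The genes most like each of the 4 were ranked among 13011 genes with a mean of at least 1 CPM, by Pearson's r of log2 CPM over the 16 libraries, which is led by the differences between groups and is given as a description. Nearest to Sulf1 were Col5a2, a chain of collagen V (0.945), Adssl1 (0.938), the matrix protein gene Sned1 (0.931), Ccn2, which encodes connective tissue growth factor (0.926), and Aif1l (0.923). Col5a2 went from 18.3 to 5.18 CPM with papain on the I3C diet and from 21.5 to 25.7 CPM in AhR-poor mice, and Ccn2 from 12.8 to 3.93 and from 18.5 to 24.1 CPM. Nearest to Glul were Angptl2, a secreted angiopoietin-like protein (0.977), Slc25a53 (0.974), the netrin receptor gene Unc5b (0.973), 4933439C10Rik and the noradrenaline transporter gene Slc6a2 (0.972 each). Angptl2 fell from 78.1 to 14.7 CPM on the I3C diet and from 77.3 to 24.3 CPM in AhR-poor mice. Nearest to Efemp1 were Pkn3 (0.98), Mical1 (0.974), Dirc2 (0.972), Susd4 (0.97) and Nt5c2 (0.969), with Mical1, an enzyme that takes actin filaments apart, going from 24.8 to 6.71 and from 25.4 to 13.8 CPM.

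Nearest to Akap12 were Cmtm3 (0.98), Rgl1 (0.979), the integrin gene Itgb3 (0.974), Ctsk, which encodes the collagen-degrading protease cathepsin K (0.972), and Nos3, the endothelial nitric oxide synthase (0.966). Ctsk stood at 0.262 and 0.18 CPM on the I3C diet and at 1.02 and 6.27 CPM in AhR-poor mice, with vehicle and papain, and Nos3 at 0.5, 0.445, 1.47 and 6.9 CPM in the same order. Ranked by deviations from the group means instead, the nearest genes were Antxr2 (0.933), Peak1 (0.921) and Hip1 (0.899) for Sulf1, Nap1l5 (0.91), Mrgprf (0.892) and Angptl2 (0.886) for Glul, Ifi27l2a (0.899), Samsn1 (0.894) and Mxd1 (0.886) for Akap12, and N4bp2 (0.857), Tor1aip1 (0.855) and Casc3 (0.818) for Efemp1. Angptl2, near Glul on both measures, was the only gene that appeared in both rankings of these lengths for the same gene.

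The genes that work beside each of the 4 were described from lists of relatives and partners. Among 16 fibulins and elastic fibre partners of Efemp1, papain called 8 higher and 0 lower in AhR-poor mice (median 1.12) and 1 higher and 5 lower on the I3C diet (median -0.41). Between diets, 7 were higher in AhR-poor mice with vehicle (median 1.47) and 9 with papain (median 3.22), and none was lower. Efemp2 (fibulin-4), a close relative, went the opposite way to Efemp1, from 0.667 ± 0.0379 to 5.9 ± 0.54 CPM on the I3C diet (log2 fold change 3.14, SE 0.20, edgeR adjusted p = 1.93e-09) and from 1.0 ± 0.328 to 8.64 ± 0.808 CPM in AhR-poor mice (3.10, SE 0.19, adjusted p = 3.03e-09). Fbln2 rose with papain on the AhR-poor diet (5.9 ± 2.15 to 20.1 ± 7.12 CPM, 1.77, SE 0.30, adjusted p = 0.000271) and was at 1.15 ± 0.349 and 1.73 ± 0.552 CPM on the I3C diet, where it was not called (0.58, SE 0.36, adjusted p = 0.234). Fbln1 was not called in any of the 4 comparisons, with log2 fold changes of 0.07 to 0.76.

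The genes of elastic fibres with the largest changes were at low levels on the I3C diet. Fbn1 (fibrillin-1), the backbone of microfibrils, was at 0.387 and 0.342 CPM on the I3C diet and at 9.69 and 39.4 CPM in AhR-poor mice, with vehicle and papain. Eln (elastin) was at 0.132, 0.152, 6.99 and 11.1 CPM in the same order, and Loxl1, a crosslinking enzyme, at 0.0954, 0.098, 1.95 and 7.06 CPM. Lox, another crosslinking enzyme, and Mfap5, a microfibril protein, were at the floor on the I3C diet and reached 11.1 and 17.1 CPM in AhR-poor mice with papain. Of these 5 genes, Fbn1, Lox and Mfap5 are also in the fibroblast list. The 5 genes called lower with papain on the I3C diet were Fbln7, Hmcn1, Hmcn2, Ltbp4 and Timp3, at -1.62, -1.15, -1.17, -1.30 and -1.27, and Timp3, an inhibitor of matrix proteases, is a known binding partner of Efemp1.

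Around Sulf1, few heparan sulfate genes were called, so their share is imprecise. Of 20 tested genes that build or edit the chains (of 23 listed), papain called 1 higher and 0 lower in AhR-poor mice and 1 higher and 1 lower on the I3C diet, with medians of -0.12 and -0.26. At an unadjusted p below 0.05 there were 7 and 13 of the 20, most of them under the minimum fold change, against 9301 and 9588 of all 22155 genes. With papain, 2 were higher and 1 lower in AhR-poor than in I3C mice, against 7.15% and 0.0993% of all tested genes. Sulf2, the other sulfatase of this kind, was not called in any of the 4 comparisons, with 83.1 ± 12.8 and 63.0 ± 5.95 CPM on the I3C diet and 70.1 ± 9.28 and 51.5 ± 4.01 CPM in AhR-poor mice (papain log2 fold changes of -0.40, SE 0.11, and -0.44, SE 0.11). Hs3st6, a sulfotransferase, was lower with papain on the I3C diet (38.9 ± 12.1 to 18.4 ± 4.16 CPM, -1.07, SE 0.20, edgeR adjusted p = 0.000444), and Hpse, the heparanase that cuts the chains, was higher on the AhR-poor diet with papain (0.979 ± 0.443 against 2.02 ± 0.487 CPM, 1.04, SE 0.27, adjusted p = 0.00957). The other called genes, Hs3st3a1 and Hs6st2, averaged under 1 CPM. Of 13 tested core proteins that carry heparan sulfate (of 14 listed), 1 was called higher with papain on the AhR-poor diet and 2 on the I3C diet (7 and 11 at an unadjusted p below 0.05). Over all tested genes 6.04% and 3.69% were called higher. Sdc3 (syndecan-3) rose from 3.89 ± 1.2 to 72.2 ± 13.9 CPM on the I3C diet (4.21, SE 0.24, adjusted p = 6.7e-09) and from 4.9 ± 1.27 to 42.7 ± 5.99 CPM in AhR-poor mice (3.12, SE 0.23, adjusted p = 1.44e-07), and Gpc1 (glypican-1) rose on the I3C diet (132 ± 7.26 to 291 ± 30.5 CPM, 1.14, SE 0.08, adjusted p = 8.26e-09). Between diets, Gpc6, which averaged under 1 CPM, was higher in AhR-poor mice with papain (1.69).

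Around Akap12, of 34 tested A-kinase anchoring proteins and kinase partners (of 36 listed), papain called 1 higher and 1 lower in AhR-poor mice and 2 higher and 1 lower on the I3C diet, with medians of -0.06 and 0.10, and 1 was higher in AhR-poor than in I3C mice with papain. No other anchoring protein was among them. Prkce (protein kinase C epsilon) rose from 12.1 ± 4.77 to 57.0 ± 7.97 CPM on the I3C diet (2.23, SE 0.23, edgeR adjusted p = 2e-06) and from 10.1 ± 1.29 to 35.6 ± 3.86 CPM in AhR-poor mice (1.82, SE 0.23, adjusted p = 2.15e-05). Prkar2b, a regulatory subunit of protein kinase A that binds anchoring proteins, fell from 13.6 ± 2.41 to 5.17 ± 0.998 CPM (-1.39, SE 0.15, adjusted p = 7.91e-07) and from 14.8 ± 2.18 to 6.83 ± 0.333 CPM (-1.11, SE 0.15, adjusted p = 1.41e-05). Prkcz rose with papain on the I3C diet (1.10, SE 0.16), and Pkib, an inhibitor of protein kinase A, was higher on the AhR-poor diet with papain (1.30, SE 0.25).

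Around Glul, of 31 genes of glutamine and glutamate handling, papain called 7 higher and 1 lower in AhR-poor mice and 6 higher and 2 lower on the I3C diet, with medians of 0.47 and 0.41. Of all tested genes, 6.04% were called higher and 2.42% lower in AhR-poor mice, and 3.69% and 5.29% on the I3C diet. The diet called 1 higher with vehicle and 2 with papain. Slc7a11, the exchanger that exports glutamate for cystine, rose from 3.91 ± 1.4 to 34.2 ± 5.3 CPM on the I3C diet (3.13, SE 0.32, edgeR adjusted p = 3.37e-06) and from 3.04 ± 0.703 to 57.0 ± 25.2 CPM in AhR-poor mice (4.23, SE 0.34, adjusted p = 6.1e-07). Cad and Aldh18a1, enzymes of pyrimidine and proline synthesis, rose on both diets, by 1.53 and 1.38 on the I3C diet and 1.15 and 1 on the AhR-poor diet, and Gpt, an alanine transaminase, fell by 1.53 and by 1.32. Gfpt2, which uses glutamine to make hexosamines, was called in all 4 comparisons, with 0.16 ± 0.0793 and 1.01 ± 0.616 CPM on the I3C diet and 2.11 ± 0.775 and 16.1 ± 7.11 CPM in AhR-poor mice.

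Of 16 glucocorticoid-responsive genes, listed because Glul is one, papain called 1 higher and 0 lower in AhR-poor mice and 0 higher and 2 lower on the I3C diet (medians 0.17 and -0.11). Tsc22d3 (GILZ) fell from 77.5 ± 18.5 to 31.3 ± 5.84 CPM on the I3C diet (-1.31, SE 0.16, edgeR adjusted p = 4.7e-06) and was at 66.6 ± 7.13 and 45.5 ± 3.03 CPM in AhR-poor mice, not called (-0.55, SE 0.15, adjusted p = 0.0105). Klf9 was lower with papain on the I3C diet (-1.21, SE 0.24, adjusted p = 0.00115) and not called on the AhR-poor diet (-0.69, SE 0.24, adjusted p = 0.0389). Angptl4 was higher with papain on the AhR-poor diet (1.17, SE 0.29, adjusted p = 0.00557), and with papain Pdk4 was higher in AhR-poor than in I3C mice (2.20, SE 0.36, adjusted p = 0.000685), as was Hsd11b1, which averaged under 1 CPM. Fkbp5, Per1, Sgk1 and Dusp1, common reporters of the hormone, were not called in any of the 4 comparisons. In the interaction, 33 of the 130 genes of these 6 lists had an unadjusted edgeR p below 0.05, and DESeq2 called 2. Of all 22155 genes tested, these numbers were 2987 and 207. That edgeR called 0 of the 130 was fixed by the choice, since its only calls were the 4 genes, which the lists leave out.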

How the data were processed

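RNA of epidermal cells from 16 mice was sequenced from TruSeq Stranded mRNA libraries. The authors aligned the reads with STAR to mm10 and deposited raw counts per gene and library. The counting tool, annotation release and strand setting are not given in the sources used here, so antisense or overlapping reads cannot be told apart. Of 50600 identifiers 50376 were matched to GENCODE M21 symbols, 224 were not, and 21610 had no count.

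Groups came from the labels. The 22155 genes whose counts summed to at least 10 were fitted in edgeR 4.0.16 (R 4.3.3) with TMM factors, a mean for each group and the robust quasi-likelihood F test. Calls required a Benjamini-Hochberg adjusted p below 0.01 and an absolute log2 fold change above 1, the study's thresholds. The average effects are orthogonal to the interaction in this balanced design, although they share its variance estimate. Log2 CPM used a prior count of 2. Marker lists were summarised by their mean log2 CPM, and deviations from group means were tested by enumerating all 331776 permutations within groups. Named relatives were those called in any of the 4 comparisons, up to the 5 with the largest change and a mean of at least 1 CPM, with Sulf2, Fbln1, Fbln2 and Efemp2, and 1 further relative is not reported here. Fkbp5, Per1, Sgk1, Dusp1, Prkcz, Pkib and genes under 1 CPM were named beside them after their values were seen. The 4 genes and all lists were chosen with earlier results of these data known.

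Alternatives were library size only, RLE factors, the filter of filterByExpr, every gene with at least 1 count, DESeq2 1.42.0, other thresholds, a prior count of 0.5, a marker filter, a fibroblast marker covariate, and leaving out each library. Scripts were tested on simulated data. No 2 libraries of a group were the same, the smallest chi-square per degree of freedom being 7.08. Precision is limited by total counts of 22500821 to 51844375 and by 4 libraries a group.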

Additional observations from a re-analysis of the deposited data

Results flagged for a closer look

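In 16 groups of 4 libraries (4 genes in 4 groups), 2 held a library set apart from the other three by Dixon's criterion at 95%, and chance alone flags about 1 in 20 groups. Glul in I3C papain library T106 was 52.8 CPM, against 35.4 to 36.6 CPM in the others, and the papain response on the I3C diet was -2.66 without it. Akap12 in I3C vehicle library T108 was 0.89 CPM, or 31 counts, against 0.663 to 0.69 CPM in the others, and the papain response on the I3C diet was -0.77 without it.

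The papain response of Akap12 had opposite directions on the diets, all 4 papain libraries lying above the vehicle libraries on the AhR-poor diet and all 4 below them on the I3C diet, with a difference of 3.01 on the log2 scale. The difference was not tested, since it chose the gene.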

How the results depend on the processing

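No paired analysis was possible because the library codes are not shared between groups. The 3 average papain calls (Efemp1, Glul, Sulf1) and the average diet calls of Akap12 and Sulf1 were kept when each library was left out, with RLE factors, library size only, other filters and DESeq2. With the fibroblast marker covariate, the average diet calls of Sulf1 and Akap12 were lost, and signs changed, within the error (adjusted p of 1), for the average diet difference of Sulf1 (-0.37, SE 1.07), Glul (-0.66, SE 0.45) and Akap12 (-0.26, SE 0.93). Signs also changed for the papain response of Sulf1 on the AhR-poor diet (-0.39, SE 0.54), the diet difference of Akap12 with vehicle (-1.09, SE 0.72) and that of Glul with papain (-0.22, SE 0.58). The diet difference of Sulf1 with vehicle went from 0.07 (SE 0.27) to -1.5 (SE 0.82). With these errors no direction was established. The interaction became 2.27 (SE 0.66) for Sulf1, 0.89 (SE 0.29) for Glul, 1.66 (SE 0.58) for Akap12 and 1.45 (SE 0.35) for Efemp1. The cause was not tested. DESeq2 called 207 genes in the interaction, against 4 by edgeR. Without a minimum fold change the average diet difference of Efemp1 (0.64) was called.

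Relations to marker lists that passed after adjustment numbered 0 to 1 when a library was left out, the 1 being Glul with T cell markers without T109 (adjusted p = 0.0427) or with mast cell markers without T101 (adjusted p = 0.0159). Restricting markers to those with at least 10 counts in every library gave 1, Akap12 with Schwann cell markers (adjusted p = 0.0443). That filter left out Sox10, S100b and Cdh19 of the Schwann cell list, which were at or under the floor in every I3C library. Pairs of the 4 genes that passed numbered 0 to 1, Sulf1 with Akap12 passing without T100 (adjusted p = 0.0256) or T103 (adjusted p = 0.00637). Over these libraries the adjusted p depends on single libraries. Unadjusted relations numbered 6 (without T112) to 19 (without T108), against 14. Without a minimum fold change the genes called in any of the 4 comparisons rose from 4 to 11 for heparan sulfate synthesis, from 3 to 8 for core proteins, from 10 to 21 for glutamine handling and from 4 to 15 for anchoring proteins. The first count fell to 2 without T111, T113, T114, T115, T104 or T105. Counts of 12 to 31 per library limit Akap12 on the I3C diet.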
